A study of Mus musculus with 4 samples.

Results

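Fibronectin and the matricellular proteins, the non-collagen proteins through which fibroblasts and their surrounding matrix act on each other, were examined in mouse cancer-associated fibroblasts (CAFs), the fibroblasts of a tumour. The 10 genes, of 23377 in the count table, were taken by symbol: Fn1 (fibronectin), the tenascin genes Tnc and Tnxb, the thrombospondin genes Thbs1, Thbs2 and Thbs3, Postn (periostin), Tgfbi (TGF-beta-induced protein), Sparc (osteonectin) and Spp1 (osteopontin). Polyadenylated RNA was sequenced in 4 libraries, 2 labelled as CAFs associated with resistant tumours (RES4) and 2 labelled as CAFs associated with normal tumours (WTA). The comparison asks how CAFs of resistant tumours differ, within a study of tumour cell lactate in resistance that develops to MET and EGFR inhibitors. The labels give no strain, age, treatment, sort or gate and no number of tumours, and within each group the titles share 1 name and differ in the replicate number only, so traits of a single tumour or culture cannot be told apart from the group. The design text calls the replicates biological; no label says that they came from distinct cultures or animals, and the p-values therefore reflect only how far these libraries scatter, which may be technical.

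Fibronectin is a large glycoprotein that cells assemble into fibrils through integrins, and other matrix proteins are laid down upon it. Matricellular proteins are secreted into the same matrix and are known less for holding it together than for binding growth factors, proteases and cell surface receptors and so altering adhesion. In tumours, activated fibroblasts are a main source of fibronectin, tenascin-C, periostin and thrombospondins, and TGF-beta is a known inducer of several of them.

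Of the 10 genes, 8 were higher in resistant tumour CAFs and 0 were lower with edgeR's quasi-likelihood test (adjusted p under 0.05); 0 were lower also at an unadjusted p under 0.05, by edgeR, DESeq2 and limma-voom alike. Fn1, Spp1 and Tgfbi rose about 3-fold, Thbs1 and Thbs2 by about 2.5-fold and 2.4-fold, and Tnc and Sparc by less than 2-fold. Tnxb was nearly confined to the resistant libraries, with 61 of its 62 reads. Postn and Thbs3 did not pass the test. Among all 12001 genes tested 29.4% passed, 15.5% as higher and 13.9% as lower. The median log2 fold change of the 10 genes was 1.29, against 0.00 over all genes tested. In 9 of the 10 genes both resistant libraries lay above both normal libraries, as they did in 31.9% of the genes tested; groups lay apart in either direction in 64.7%. All 10 genes passed the filter on low counts, Tnxb through the resistant libraries alone, so that its call carries no weight. Of the other 9 genes 7 were higher, with a median log2 fold change of 1.27. In bulk RNA, fewer cells that express a gene and less of its RNA per cell cannot be told apart.

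**Figure D1:**
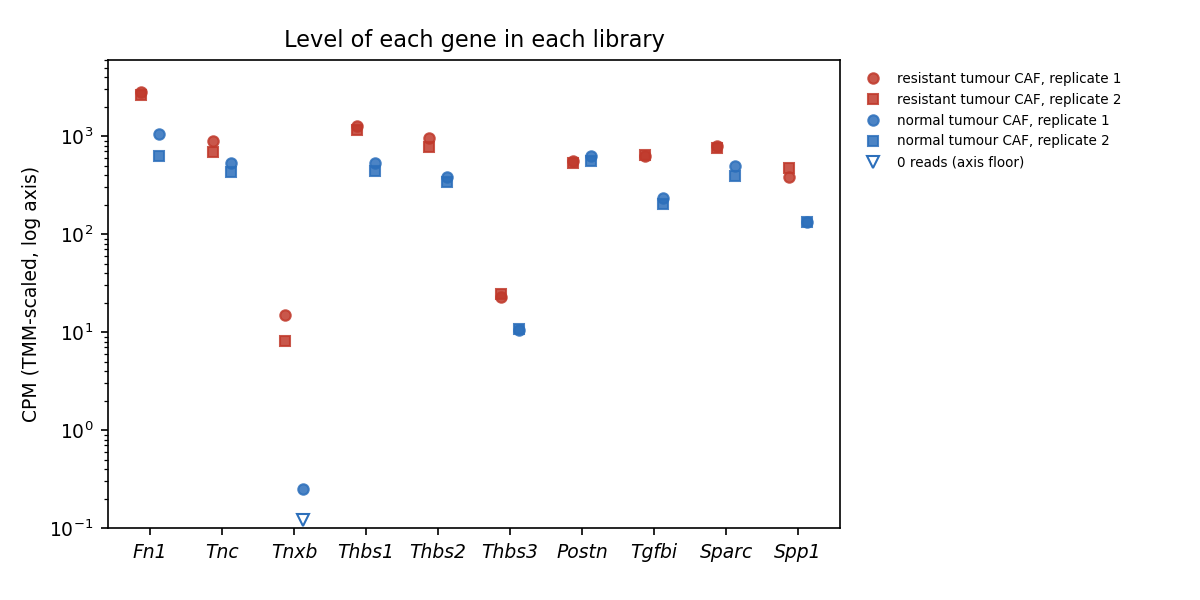
Level of each of the 10 genes in each library, in CPM (reads scaled to the TMM-adjusted library total) on a log axis; circles are replicate 1, squares replicate 2, red resistant and blue normal tumour CAFs, and the open triangle marks 0 reads. Groups lie apart for every gene but Postn, and Tnxb and Thbs3 lie far below the other 8.

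Library totals ran from 2785936 to 5558541 reads, and 3 reads correspond to between 0.505 and 1.14 CPM. The 4 libraries differed in markers of cell type. All 13 tested fibroblast markers were higher in resistant tumour CAFs (median log2 fold change 2.02), with a summed level of 10074 to 10601 CPM against 3750 to 4581 CPM. They include Col1a1 and Col1a2, which encode collagen I (0.66 ± 0.20 and 0.81 ± 0.20, log2 fold change ± SE). Both lie below the median of these markers. Pdgfra had 1119 and 881 CPM in the resistant against 29.7 and 7.41 CPM in the normal libraries (5.78 ± 0.52). Pdpn had 101 and 120 against 3.72 and 10.8 CPM (3.89 ± 0.50). The call of Col1a1 was lost with DESeq2 (adjusted p = 0.094), with read density offsets (0.29, adjusted p = 0.208), and on leaving out resistant replicate 1 (adjusted p = 0.0781), resistant replicate 2 (0.128) or normal replicate 2 (0.177); that of Col1a2 was lost on leaving out resistant replicate 2 (adjusted p = 0.0704). Schwann cell and neural crest markers summed to 305 to 307 CPM in resistant and 1468 to 1629 CPM in normal tumour CAFs, and 8 of 10 tested were lower. Among these, the transcription factor gene Sox10 had 2 and 1 reads in the resistant and 745 and 821 in the normal libraries, and Ngfr, the low-affinity neurotrophin receptor, 9 and 9 against 1990 and 2747; Pmp22, a myelin protein gene that fibroblasts also express, was higher (0.94 ± 0.26), a call lost on leaving out normal replicate 1 (adjusted p = 0.215) or 2 (0.346). The part of these markers in the results below was not tested. Of the 10 tested Schwann cell and neural crest markers, 5 had at most 3 reads in the resistant group. These passed the filter on low counts through the normal libraries alone. Of the fibroblast markers, Dcn and Fap passed it through the resistant libraries alone. Macrophage markers summed to 22.1 to 29.7 CPM in resistant and 8.92 to 10.4 CPM in normal tumour CAFs. Lyz2 (lysozyme) had 7.61 and 7.71 against 0.496 and 1.18 CPM. It passed the filter on low counts through the resistant libraries alone. Csf1r had 4.19 and 6.97 against 2.73 and 2.52 CPM and did not pass the test. Cd68 had 4.95 and 3.67 against 3.96 and 3.53 CPM and did not pass either. The defining genes Ptprc, Emr1 and Aif1 had 0 reads in all 4 libraries. Endothelial markers summed to at most 5.95 CPM, and Tie1 and Emcn had 0 reads. The epithelial genes Epcam, Cdh1 and Krt5 had 0 reads, while Krt19 was higher in resistant tumour CAFs (45.7 and 63.9 against 6.44 and 6.40 CPM). Of 9 tested smooth muscle and pericyte genes 2 were higher and 2 lower. The higher ones, Myh11 and Rgs5, passed the filter on low counts through the resistant libraries alone. The contractile genes Acta2 and Tagln had log2 fold changes of 0.21 ± 0.26 and 0.55 ± 0.26 and did not pass the test.

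Upstream sequence is shown for 4 of the genes as examples of different results: Tnxb, with nearly all reads in 1 group, Spp1 and Thbs2, which rose, and Postn, which did not pass. They were chosen with their values known, among windows without an exon of the gene. RefSeq start sites on GRCm38.p6, a later build than the mm9 named for the deposited counts, were matched by symbol for 8 of the 10 genes, giving 11 windows of 250 bases before a start. The Tnxb window is chr17:34670285-34670534 on the plus strand, that of Spp1 chr5:104434861-104435110 on the plus strand, that of Thbs2 chr17:14694263-14694512 on the minus strand and that of Postn chr3:54360857-54361106 on the plus strand. Each is printed 5′ to 3′, ends 1 base before the start site and holds no annotated exon of its gene; for Spp1 and Postn 1 of 2 windows is shown. Capitals mark matches on either strand to the TATA box (letters TATAAA), the CCAAT box (letters CCAAT), the AP-1 motif (TGA, any base, then TCA) or the GC box (letters GGGCGG).
Tnxb: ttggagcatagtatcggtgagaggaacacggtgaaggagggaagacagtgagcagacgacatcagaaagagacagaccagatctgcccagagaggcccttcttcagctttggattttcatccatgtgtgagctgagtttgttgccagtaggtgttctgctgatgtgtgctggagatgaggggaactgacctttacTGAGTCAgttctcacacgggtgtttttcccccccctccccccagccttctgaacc
Spp1: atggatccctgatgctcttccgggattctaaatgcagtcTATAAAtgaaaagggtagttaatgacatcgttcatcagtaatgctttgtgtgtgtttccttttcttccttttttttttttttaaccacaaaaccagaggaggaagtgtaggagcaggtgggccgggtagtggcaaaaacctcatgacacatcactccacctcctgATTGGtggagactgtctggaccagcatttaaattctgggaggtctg
Thbs2: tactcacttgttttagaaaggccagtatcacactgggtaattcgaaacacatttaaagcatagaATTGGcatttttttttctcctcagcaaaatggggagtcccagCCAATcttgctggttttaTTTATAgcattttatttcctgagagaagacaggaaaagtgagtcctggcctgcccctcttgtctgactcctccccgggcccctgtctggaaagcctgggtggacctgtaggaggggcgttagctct
Postn: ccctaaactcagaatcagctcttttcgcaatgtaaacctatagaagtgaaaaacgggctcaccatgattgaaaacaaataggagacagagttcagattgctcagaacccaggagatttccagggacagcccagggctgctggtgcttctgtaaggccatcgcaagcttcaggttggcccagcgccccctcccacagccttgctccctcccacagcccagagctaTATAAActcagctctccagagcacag

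The AP-1 letters stood 55 bases before the start of Tnxb, the sole match among the 11 windows, and 6.75% of all 32851 windows of this length hold one. Postn had the TATA box letters 26 bases before its start. Thbs2 and Spp1 had them 126 and 211 bases before theirs; Spp1 also had a CCAAT box at 46 bases and Thbs2 had them at 144 and 186 bases. Over the 11 windows 5 held TATA box letters, 3 a CCAAT box and 4 a GC box; over all windows these shares were 12.4%, 33.8% and 32.7%. The 2 windows of Tnc overlap and hold the same TATA and GC box letters, so by gene the counts were 4, 3 and 3 of 8. No match overlapped another. A match is a run of letters in these windows and says nothing of binding.

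Fn1 was the gene with the most reads in resistant replicate 2, ranked 2 in resistant replicate 1, and ranked 5 and 13 in normal replicates 1 and 2. Its level was 2817 and 2607 CPM in the resistant libraries against 1058 and 634 CPM in the normal libraries. The lowest resistant library was thus above the highest normal one, and the normal replicates differed from each other more than the resistant ones did. The means were 2712 ± 149 and 846 ± 300 CPM (SD, n = 2), a log2 fold change of 1.68 ± 0.25 (SE), adjusted p = 0.000281. Without normal replicate 1 the log2 fold change was 2.03 and without normal replicate 2 it was 1.32, both past the test. Fn1 alone held 33.7% and 34.0% of the reads of the 10 genes in the resistant libraries and 26.5% and 20.2% in the normal libraries.

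The tenascins, large multi-armed glycoproteins that modulate cell adhesion to fibronectin, moved unequally. Tnc, tenascin-C, which is scarce in most adult tissue and produced in wounds and tumour stroma, had 900 and 690 CPM in the resistant libraries and 529 and 428 CPM in the normal libraries. These groups lie apart by less than the resistant replicates differ from each other. The log2 fold change was 0.73 ± 0.23 with adjusted p = 0.0313, and the call was lost with DESeq2 (adjusted p = 0.0765). It was also lost in 3 of 4 fits to fewer libraries, at 0.54 (adjusted p = 0.108) when resistant replicate 1 was left out, 0.82 (adjusted p = 0.0535) for normal replicate 1 and 0.55 (adjusted p = 0.323) for normal replicate 2.

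Tnxb, tenascin-X, which associates with collagen fibrils in loose connective tissue, had 39 and 22 reads in the resistant libraries and 1 and 0 in the normal libraries. The ratio of pooled reads, scaled for library size, was 114 with a 95% counting interval of 19.7 to 4564 (exact, counting error only). Tnxb passed the filter on low counts through the resistant libraries alone, so a difference was built into its selection and its p-value is not given. At 14.8 and 8.07 CPM it remained the lowest of the 10 genes in every library. Another tenascin gene outside the 10, Tnn (tenascin-W), had 1335 and 991 reads in the resistant and 48 and 43 in the normal libraries; the log2 fold change was 5.53 ± 0.36 (adjusted p = 2.56e-06). Each read of Tnc was matched by 0.564 and 0.527 reads of Tnn in the resistant and by 0.0225 and 0.0169 in the normal libraries, so the balance between these tenascins differed by more than the replicates did. With 2 libraries against 2 an exact two-sided permutation test of such a ratio cannot go below p = 0.333.

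Thrombospondins are secreted calcium-binding glycoproteins; Thbs1 and Thbs2 form trimers, inhibit angiogenesis and bind the receptors CD36 and CD47, and Thbs1 can activate latent TGF-beta. Thbs1 had 1275 and 1150 CPM in the resistant and 527 and 446 CPM in the normal libraries; the log2 fold change was 1.32 ± 0.21 (adjusted p = 0.000551). Thbs2 had 967 and 774 CPM against 379 and 344 CPM; the log2 fold change was 1.27 ± 0.22 (adjusted p = 0.00102). In both genes the lowest resistant value was at least 2 times the highest normal one. Thbs1 gave 1.32 and 1.49 reads per read of Thbs2 in the resistant libraries against 1.39 and 1.30 in the normal ones, ranges that overlap.

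Thbs3, a member of the group of thrombospondins that form pentamers, was measured at 22.8 and 24.2 CPM in resistant and 10.4 and 10.8 CPM in normal tumour CAFs. The replicates were close within each group and the groups did not overlap, but at 42 to 66 reads a library the log2 fold change of 1.15 ± 0.42 did not pass the test (adjusted p = 0.0585). It passed with exonic length accounted for (1.16, adjusted p = 0.0412). On GRCm38, 6.59% of the exonic bases of Thbs3 overlap Mtx1 on the opposite strand, and whether the counting used strand is not given in the sources used here. Of the other pentamer-forming members, Thbs4 had 0 reads in all libraries, and Comp had 1, 1, 0 and 5 reads in resistant replicates 1 and 2 and normal replicates 1 and 2.

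Periostin and the TGF-beta-induced protein are related proteins, built on the same fasciclin domains, that bind integrins and collagen, and both are known as TGF-beta target genes. Tgfbi had 630 and 636 CPM in the resistant libraries and 233 and 203 CPM in the normal libraries; the log2 fold change was 1.54 ± 0.23 (adjusted p = 0.000288). Postn had 560 and 539 CPM in the resistant libraries and 626 and 552 CPM in the normal libraries, and the group ranges overlapped. Its log2 fold change was -0.10 ± 0.22 (adjusted p = 0.777). Over the 15 alternative analyses it lay between -0.24 and -0.06 and passed in none. Reads of Postn per read of Tgfbi were 0.888 and 0.848 in the resistant libraries against 2.69 and 2.73 in the normal ones, a difference that does not rest on the scaling of libraries. Per read of Fn1 they were 0.199 and 0.207 against 0.592 and 0.871. Postn was the only one of the 10 genes whose fitted value was below 0 in the main test and in all of these alternatives.

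Sparc, a collagen-binding glycoprotein that aids the processing and deposition of fibrillar collagen, had 788 and 758 CPM in the resistant and 499 and 391 CPM in the normal libraries. The groups did not overlap, and the log2 fold change was 0.80 ± 0.22 (adjusted p = 0.0171). The call was lost at 0.82 (adjusted p = 0.0514) when resistant replicate 2 was left out, at 0.59 (adjusted p = 0.273) when normal replicate 2 was, and with each library's trend along read density removed (0.52, adjusted p = 0.0586). Sparc is the most densely covered of the 10 genes, at a mean of 0.559 reads per exonic base. Reads of Sparc per read of the collagen gene Col1a1 were 0.466 and 0.445 in the resistant libraries against 0.423 and 0.406 in the normal ones.

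Spp1, a phosphoprotein that binds integrins and CD44 and is also produced by macrophages and bone cells, had 387 and 470 CPM in the resistant and 133 and 132 CPM in the normal libraries. The resistant replicates differed by more than the normal ones, and both lay far above them. The log2 fold change was 1.69 ± 0.25 (adjusted p = 0.000252), and it passed in all 15 alternatives, at 1.39 to 1.84. The summed level of macrophage markers was 22.1 and 29.7 CPM in the resistant and 8.92 and 10.4 CPM in the normal libraries. Of 3 tested, 1 was higher, Lyz2 (3.07 ± 0.63), which passed the filter on low counts through the resistant libraries alone. Cd68 overlapped, at 4.95 and 3.67 against 3.96 and 3.53 CPM, and Csf1r did not pass the test. Cd14, untested for low counts, had 3.04 and 10.6 against 1.24 and 2.36 CPM. Of the 11 markers 3, Ptprc, Emr1 and Aif1, had 0 reads in all 4 libraries. The part of macrophage markers in the level of Spp1 was not tested. A transcript of unproven status, Gm42793, overlaps 18.8% of the exonic bases of Spp1 on the same strand on GRCm38.

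**Figure D2:**
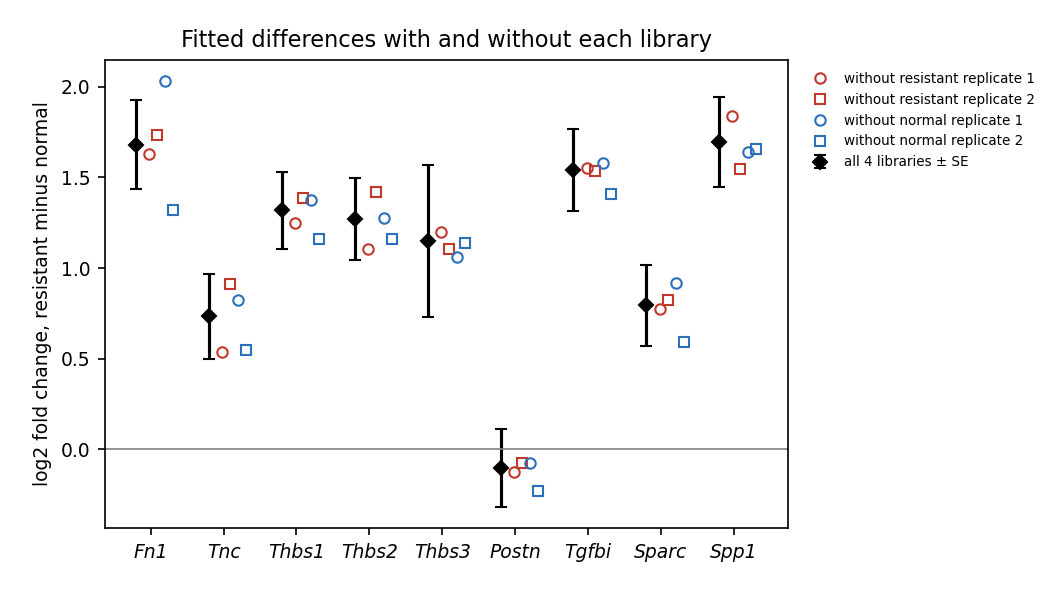
Log2 fold change of resistant minus normal tumour CAFs for 9 of the genes: diamonds with bars are the fit to all 4 libraries ± SE, open symbols the fits without 1 library; Tnxb is left out because its normal libraries hold 1 read. Every value but those of Postn lies above 0, and Fn1 moves the most, from 1.32 to 2.03.

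Against a log2 fold change of 1, edgeR's glmTreat called 4 of the 10 genes. They were Spp1, Fn1 and Tgfbi (adjusted p = 0.0125, 0.0142 and 0.0277) and Tnxb, whose call carries no weight. Over all 12001 genes tested it called 1066 higher and 839 lower. In the authors' deposited table Tnxb alone of the 10 was called, with a log2 fold change of 6.76. Tnxb had 1 and 0 reads in the normal libraries. Over all 15879 genes that the authors list, 776 were called higher and 574 lower in resistant tumour CAFs. Genes called there all have a log2 fold change of 2 or more in size, and adjusted p up to 0.0999. No other of the 10 reached that size. The authors' deposited table gave Spp1 1.67, Fn1 1.65 and Tgfbi 1.51, with adjusted p of 0.249, 0.336 and 0.542. Its statistic is 0 for Tnc, Sparc and Postn, although its log2 fold changes of Tnc and Sparc are 0.7 and 0.77. A test against a log2 fold change of 0 would not give that. The statistics of the 10 genes go with a test against a log2 fold change of 1 in size. These adjusted p-values therefore cannot be set against those of the main test, which asks about any change.

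Levels per kilobase of exon allow different genes to be set side by side. Over the 4 libraries 8 of the genes lay between 49.1 and 285 CPM per kb, and Thbs3 and Tnxb far below. In resistant tumour CAFs Fn1 (241 and 223 CPM per kb) and Spp1 (235 and 285) stood highest and overlapped, followed by Thbs1 (210 and 189) and Sparc (208 and 200), which overlapped too. Tgfbi (167 and 169) came next, then Thbs2 (138 and 111), Tnc (116 and 88.8, overlapping Thbs2) and Postn (64.4 and 61.9). In normal tumour CAFs Sparc stood highest (132 and 103 CPM per kb). Below it the ranges of Fn1 (90.5 and 54.3), Thbs1 (86.9 and 73.4), Spp1 (80.6 and 80.0), Postn (71.9 and 63.5), Tnc (68.1 and 55.1) and Tgfbi (61.7 and 53.7) ran into each other, and Thbs2 (54.1 and 49.1) overlapped Tgfbi and Tnxb did not exceed 0.0203. The share of Postn in the summed level per kb of the 10 genes was 4.65% and 4.64% in the resistant libraries against 11.1% and 11.9% in the normal ones, and that of Sparc 15.0% and 15.0% against 20.3% and 19.3%. Exonic lengths are unions over all annotated transcripts of a gene, so a gene with long rare exons is placed too low.

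**Figure D3:**
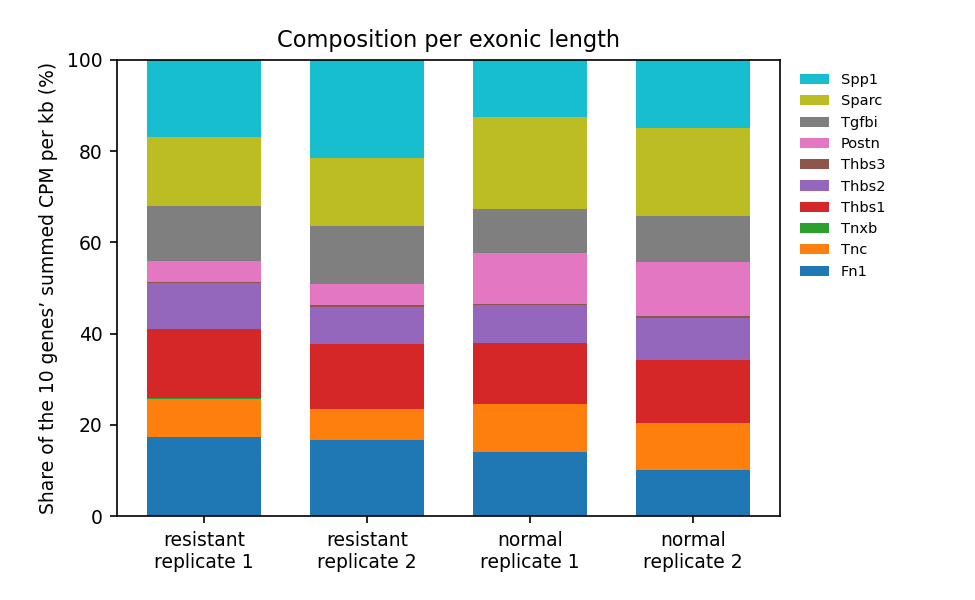
Share of each gene in the summed CPM per kb of the 10 genes (per cent), 1 bar per library. Postn takes 4.64% to 4.65% in the resistant and 11.1% to 11.9% in the normal libraries, while Thbs3 and Tnxb are barely visible in any.

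Together the 10 genes held 0.772% and 0.749% of all reads in the resistant libraries and 0.408% and 0.336% in the normal libraries. Without Fn1 these shares were 0.512% and 0.494% against 0.300% and 0.268%.

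Other matricellular and related matrix genes, a list of 41, were mostly higher in resistant tumour CAFs as well. Of 26 tested, 18 were higher (69.2%) and 5 lower (19.2%), against 15.5% and 13.9% of all genes tested. The median log2 fold change was 1.89. Among the 18, Smoc1 (25 and 15 against 4 and 7 reads) and Srpx2 (43 and 43 against 5 and 5) carry no weight. Like Nov below, they passed the filter on low counts through the resistant libraries alone. The rise was steep for Sparcl1, the closest relative of Sparc, with 266 and 210 CPM against 4.96 and 3.03 CPM (5.92 ± 0.40, adjusted p = 2.94e-06). Nov, a member of the CCN family of matricellular proteins, had 182 and 153 reads against 7 and 2 (6.01 ± 0.63). Nov passed the filter on low counts through the resistant libraries alone, so its call carries no weight and its p-value is not given. Emilin1, an elastic fibre protein, rose by 3.17 ± 0.35. Edil3, an integrin-binding protein first known from endothelium, went the other way, with 29.3 and 20.9 CPM in resistant and 315 and 343 CPM in normal tumour CAFs (-3.71 ± 0.31, adjusted p = 8.03e-06).

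The others that were lower, named after their values were seen, were Spon1 (-2.47 ± 0.57), Npnt (-2.26 ± 0.51), Wisp2 (-1.24 ± 0.38) and Ctgf (-0.92 ± 0.29), the last being connective tissue growth factor, a CCN protein and known YAP and TGF-beta target. The call of Ctgf was lost when resistant replicate 1 (adjusted p = 0.0694), normal replicate 1 (0.216) or normal replicate 2 (0.124) was left out, and that of Wisp2 when normal replicate 1 (adjusted p = 0.135) or 2 (0.253) was. The CCN genes Cyr61 and Wisp1 had -0.30 ± 0.26 and -0.24 ± 0.25 and did not pass. Of the tested CCN genes 2 were thus lower and 2 not called, with Nov set aside because its call carries no weight. Spon1 passed the filter on low counts through the normal libraries alone, so its call carries no weight. Without normal replicate 2, 3 genes of the whole list were lower.

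**Figure D4:**
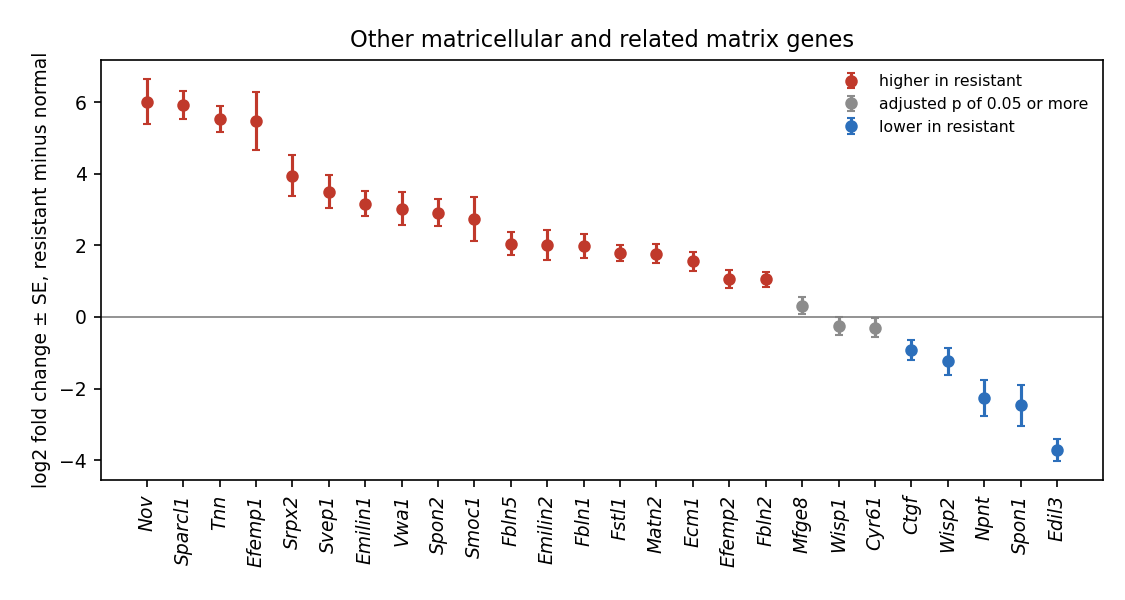
Log2 fold change ± SE, resistant minus normal tumour CAFs, of the 26 tested genes among 41 other matricellular and related matrix genes, in order of size. Red marks genes that passed as higher (18), blue as lower (5) and grey those that did not pass (3).

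Receptors of these proteins did not move one way. Of 18 tested in a list of 20, 6 were higher (33.3%) and 5 lower (27.8%), with a median log2 fold change of 0.51. Over all genes tested these shares were 15.5% and 13.9%. Of the 5, Itgb8, Ptprz1 and Stab1 passed the filter on low counts through the normal libraries alone, so their calls carry no weight. Of the 6, Itga9 passed it through the resistant libraries alone. Itgb1, the beta subunit that most fibronectin- and collagen-binding integrins share, had 242 and 208 CPM in resistant and 674 and 600 CPM in normal tumour CAFs; the fitted change was -1.50 ± 0.23 (adjusted p = 0.000379). The groups stood far apart, and the value was lower in the libraries where Fn1 was higher. Itgb8, a subunit that pairs with alpha V and activates latent TGF-beta, had 0 and 2 reads against 321 and 290; scaled for library size, the normal libraries held 164 times as many (95% counting interval 45.2 to 1356). Ptprz1, a phosphatase receptor that binds tenascin-C and is typical of glia, had 0 and 0 reads against 18 and 50, and its level in the normal libraries was at least 12.2-fold higher, taken against 3 reads over the resistant group. Stab1, a scavenger receptor that takes up Sparc, had 2 and 1 against 50 and 49 reads; scaled for library size, this was 17.7 times as many in the normal libraries (95% counting interval 5.88 to 87.3).

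The remaining receptor that was lower, Itga3 (-1.75 ± 0.46), was chosen with its value in view, and its call was lost when normal replicate 1 was left out (adjusted p = 0.0949). Lrp1, an endocytic receptor that clears thrombospondins among other ligands, rose from 538 and 223 to 3045 and 1960 CPM (2.72 ± 0.36, adjusted p = 0.000141). Named after their values were seen, Cd47, a thrombospondin receptor, had 1.13 ± 0.25 (adjusted p = 0.00394) and Itga5, the alpha subunit of the main fibronectin receptor, 0.75 ± 0.23 (adjusted p = 0.0276). Both calls were lost when normal replicate 1 (adjusted p = 0.0747 and 0.18) or normal replicate 2 (0.148 and 0.368) was left out, and that of Itga5 with DESeq2 (adjusted p = 0.0608). Without either of these libraries 1 receptor was called higher instead of 6, and that was Lrp1. Cd36 had 3 reads in resistant replicate 1 and 0 elsewhere.

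Genes of fibronectin and collagen assembly and turnover were mostly higher. Of 25 tested, 16 were higher and 0 lower with edgeR (median log2 fold change 2.00); at an unadjusted p under 0.05 Bmp1, the procollagen C-proteinase, was lower by edgeR, DESeq2 and limma-voom (-0.73 ± 0.29, adjusted p = 0.0836 with edgeR), and 0 passed as lower after adjustment with either other tool. Lox, lysyl oxidase, which cross-links collagen, rose from 221 and 187 to 1239 and 1148 CPM (2.55 ± 0.23, adjusted p = 1.04e-05). The proteases Plau (urokinase) and Mmp9 rose by 3.32 ± 0.29 and 5.95 ± 0.56, Col3a1, the chain of collagen III, by 2.02 ± 0.21, and Ltbp1, which anchors latent TGF-beta in the fibronectin matrix, by 2.68 ± 0.27. Bmp1 passed as lower without resistant replicate 1 (-1.10, adjusted p = 0.00755). Fbn2, Mmp13, Mmp9, Tll1 and Fap passed the filter on low counts through the resistant libraries alone. They are counted among the 16, and their calls carry no weight. With them, 64% of the 25 were higher, against 15.5% of all genes tested. Col1a1, Col1a2, Col3a1 and Fap are also among the fibroblast markers, and Fbln2 is among both those and the other matricellular genes.

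Of 24 tested TGF-beta ligands, receptors, latent-complex proteins and signalling genes, 5 were higher (20.8%) and 4 lower (16.7%), with a median log2 fold change of -0.15. These shares are near those of all genes tested, 15.5% and 13.9%, and say nothing particular of the list. Ltbp2, a latent TGF-beta binding protein, had 278 and 263 against 16.6 and 15.5 CPM (4.07 ± 0.31, adjusted p = 5.45e-06), and the co-receptor Tgfbr3 (betaglycan) rose by 3.27 ± 0.27. The ligand gene Tgfb2 had 32.0 and 20.2 CPM in resistant and 145 and 185 CPM in normal tumour CAFs (-2.66 ± 0.36, adjusted p = 0.000161), and the co-receptor Eng (endoglin) 2.66 and 2.57 against 55.7 and 48.6 CPM (-4.30 ± 0.49). Eng passed the filter on low counts through the normal libraries alone, so its call carries no weight. Tgfb1 and Tgfb3 had -1.14 ± 0.61 and -0.30 ± 0.30 and did not pass. The others that passed, named after their values were seen, were Ltbp3 (1.37 ± 0.36) and Ski (1.09 ± 0.35), higher, and the feedback inhibitor Smad7 (-1.89 ± 0.38) and Ltbp4 (60.5 and 32.7 against 202 and 171 CPM), lower. Without normal replicate 1 or 2, Ltbp3 (adjusted p = 0.0671 and 0.393) and Ski (adjusted p = 0.0679 and 0.534) did not pass; Ski did not without resistant replicate 1 either (adjusted p = 0.125), when 7 of the genes were lower.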

How the data were processed

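Read counts per gene symbol were deposited by the authors as raw counts. The submitters' processing notes name the mm9 build, TopHat2 2.1.1, Picard 1.62, HTSeq 0.7.2 and DESeq2, with no roles or settings, and the annotation is not given in the sources used here. Per the labels, protocols exist for both a TruSeq kit and SMART-seq2, without saying which was used for which library. Of the authors' deposited table, values of the 10 genes are quoted: log2 fold changes, a score (the statistic), p-values and adjusted p-values, and group means of normalized signal, which are not printed; signs are positive where resistant is higher, and the genes called there all have a log2 fold change of 2 or more in size; its statistic is 0 for 9194 genes, none with a log2 fold change over 1.01 in size.

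Groups and replicate numbers come from the titles. The test was edgeR's (version 4.0.16, R 4.3.3), with filterByExpr (minimum count 10), TMM, and a quasi-likelihood F test with group as the only term, resistant minus normal, Benjamini-Hochberg adjusted over 12001 genes, threshold 0.05. The SE is the absolute log2 fold change over the square root of F. CPM uses TMM-scaled totals. Where a group holds at most 3 reads, a pooled ratio or bound replaces the fold, and the gene passed the filter through the other group alone. So did some genes with slightly more reads in their low group, including Nov, Mmp9, Lyz2, Csf1r, Spon1, Eng, Dcn, Fap, Tll1, Itga9 and Rgs5. Smoc1 and Srpx2 are also among them. The counts over lists and markers include such genes. Intervals take in counting error alone, and copies of 1 molecule made by PCR may be counted more than once. Exonic lengths come from GENCODE on GRCm38, matched by symbol for 99.4% of tested genes. The script was tested on simulated counts. The members and lists were chosen with earlier results of these data known. Named genes were the 10, up to 5 called genes of smallest adjusted p per pathway list and the 2 of highest CPM per marker list; every other gene named was chosen after its values were seen. Alternatives were RLE and upper-quartile factors, library totals, no filter, 50 reads in 2 libraries, DESeq2 1.42.0, limma-voom (limma 3.58.1), the replicate number as a block, each library left out, loess offsets (span 0.5) along reads per exonic base or exonic length, and glmTreat.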

Additional observations from a re-analysis of the deposited data

How the results depend on the processing

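Leaving out 1 library leaves its group with a lone one, whose spread is taken from the other group. The 8 genes of the 10 that passed as higher became 7 with at least 50 reads in 2 libraries (where Tnxb is not tested), with DESeq2 and with read density offsets, 9 with length offsets, 6 to 7 with a library left out, and 4 against a log2 fold change of 1, where Thbs1 and Thbs2 had adjusted p = 0.125 and 0.195. No direction reversed among the 10, and 0 were lower in every alternative. Library totals in place of TMM moved the median of all genes to -0.14, and the calls over all genes from 1857 higher and 1668 lower to 1736 and 2150; without a library they ran from 1078 to 2024 and 951 to 2323, and against a log2 fold change of 1 they were 1066 and 839.

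No label says whether libraries with the same replicate number share a batch or preparation, and the deviations of libraries with the same number correlated at 0.204 across genes. With the number as a block, 9 of the 10 genes were higher, Thbs3 among them (adjusted p = 0.0244), 2257 genes were higher and 2267 lower in all, and 1 assembly and turnover gene was lower in place of 0. That last count was also 1 with library totals, no filter or length offsets, and 0 to 2 with a library left out. Against a log2 fold change of 1, the lower count was 3 for other matricellular genes, and the higher counts were 1 for receptors and 3 for TGF-beta genes. With at least 50 reads in 2 libraries 3 receptors were lower. With a library left out, other matricellular genes had 3 to 5 lower, receptors 1 to 6 higher, and TGF-beta genes 3 to 7 higher and 4 to 7 lower. A test against a larger change can only lower a count; for the other alternatives, which moved counts both ways, the cause was not tested. Depth limits Tnxb and Thbs3, at 0 to 66 reads a library.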
